A study of Danio rerio with 13 samples.

Results

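Protein metabolism genes outside the ribosome are the translation factors, chaperones, secretory enzymes, glycosyltransferases and mitochondrial import proteins of the Reactome set for the metabolism of proteins. The set was read as the study tabulated it for these same ventricles, so it is not independent of them. Of its 176 zebrafish genes, the 71 of peptide chain elongation, which are mostly ribosomal proteins, were taken out. The eif4a2 gene was taken out because it also belongs to the immune sets, and etf1b because its symbol shares a prefix with the electron transfer flavoproteins, although it encodes a translation termination factor. This left 103 of the 32520 genes in the table, and each of the 103 had at least 1 count. The tissue was the adult zebrafish ventricle 180 days after cryoinjury, in which a frozen probe kills part of the ventricle wall. The 6 mutant samples were vegfc(hy-/-);vegfd(-/-), with a hypomorphic vegfc allele and a null vegfd allele, and the 7 control samples were vegfc(+/+):vegfd(+/+). Vegfc and Vegfd are the ligands that drive lymphatic vessel growth, and the comparison asks how ventricles with impaired Vegfc and Vegfd differ late after injury. The vegfc allele keeps some function, the study's fish also carried a lyve1b:DsRed lymphatic reporter that the sample labels do not name, and the labels do not say which mutant hearts had regenerated. Each sample was RNA from 12 fixed ventricle cryosections of 8 μm. Counts are given below for mutants 1 to 6 and for controls 1, 3, 4, 5, 6, 7 and 8, in that order.

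These genes serve the life of a protein from start to address. Initiation factors load the ribosome on an mRNA and elongation factors move it along. Chaperonins fold the product, the signal recognition particle (SRP) and the translocon pass secreted chains into the endoplasmic reticulum, where N-glycans are added, and COPII vesicles carry the cargo to the Golgi, where mucin-type O-glycans follow. A separate route through the TOM and TIM complexes takes proteins into mitochondria, an organelle that fills much of a heart muscle cell.

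The counts were very unevenly spread. The rn7sl1 gene, which encodes the 7SL RNA that forms the core of the SRP and is not itself a member, held 92.9% of all counts, with 94.7 to 96.4% in mutants and 60.8 to 91.5% in controls. Its log2 fold change, mutants over controls, was 1.36 (SE 0.15, adjusted p = 4.93e-17 in edgeR's quasi-likelihood test). That value depends on TMM scaling of library size, with factors of 0.44 to 1.23 in mutants and 1.02 to 1.91 in controls. As an unscaled share of all counts, rn7sl1 averaged 95.7% in mutants and 85.3% in controls, a ratio of 1.12. Total counts ran between 3575023 and 12972634 in mutants and between 2123784 and 4291363 in controls, but only 171218 to 596616 counts in mutants and 256802 to 1070324 in controls lay outside rn7sl1. Control 8 stood apart, since 728239 of its counts were on RAB11FIP4. Neither targeted gene could check the labels, because vegfc had no count in any mutant and 32 in control 1 alone, and vegfd had none in any sample.

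The members were thinly covered. A count on a member was seen for 38, 64, 27, 28, 37 and 53 of the 103 genes in mutants, against 48, 42, 49, 42, 25, 50 and 19 in controls. Samples with many genes detected tended to have many members detected, and the groups overlapped. No member had a count in all 13 samples, as 124 of the genes tested did, and the most widely detected, galnt2, had counts in 11. The 79 members that averaged 10 or more counts over the samples, which were the ones tested, had a count in a median of 6 samples, the same as over all 6138 genes tested. In the median tested member, 43.5% of the counts came from 1 sample, against 46.5% over all genes tested. The other 24 members had 1 to 127 counts in total.

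**Figure D1:**
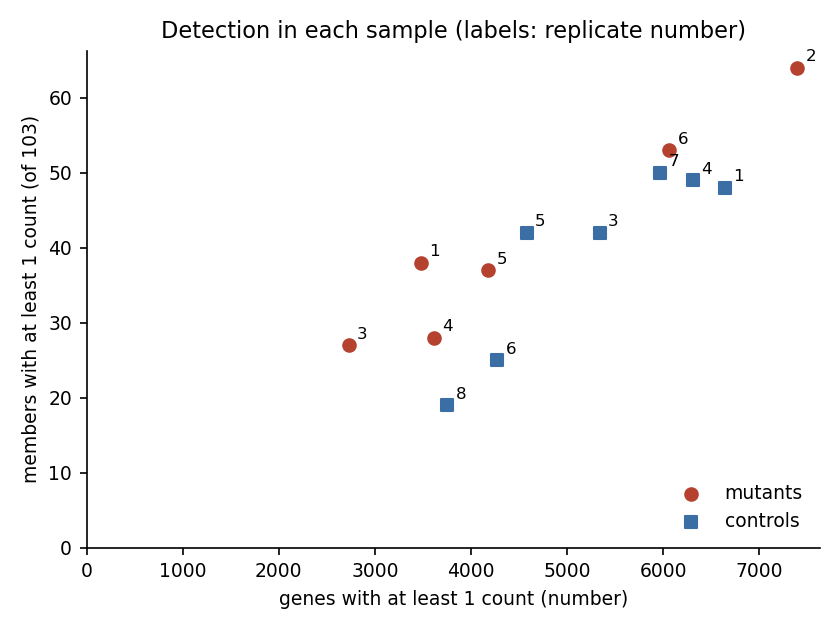
Number of the 103 members with at least 1 count (vertical axis) against the number of all genes with at least 1 count (horizontal axis), 1 point per sample labelled with its replicate number, mutants as circles and controls as squares. Mutant 2 had 64 members and control 8 had 19, and the groups overlapped along both axes.

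Summed over the 103 genes, the counts made up a larger part of the RNA outside rn7sl1 in mutants and a smaller part of all RNA. Per 10000 counts outside rn7sl1, members held 110.4, 87.0, 116.1, 83.4, 83.6 and 113.3 in mutants, against 56.2, 77.9, 77.1, 63.7, 64.5, 55.9 and 9.16 in controls. Every mutant was above every control, with means of 99.0 ± 15.8 (SD, n = 6) and 57.8 ± 23.2 (SD, n = 7) and a ratio of 1.71. The set came from the study's own results on these ventricles, so this separation is a description and does not bear on direction. As a share of all counts the order turned round, with 345.5 to 602.4 per 1000000 counts in mutants and 359.3 to 852.2 in controls and a ratio of 0.66. The eef1g gene alone gave 14.6% of the member counts. Without it, the ratio outside rn7sl1 was 1.36 and 3 of the mutants remained above every control. Leaving RAB11FIP4 out of the denominator raised control 8 to 28.7 per 10000 and gave a ratio of 1.63. These last 2 values were added after the data were seen.

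Levels of cell type markers are given beside this sum. The 5 of 10 listed cardiomyocyte markers that matched an ID summed to 31.7 to 312 counts per 1000000 of TMM-scaled library size (CPM) in mutants, with a median of 205, against 0.75 to 90.9 in controls, with a median of 49.5. Among them actc1a, a cardiac actin, had 1003, 905, 931, 137, 239 and 882 counts in mutants, against 63, 90, 129, 3, 81, 97 and 0 in controls (log2 fold change 3.21, adjusted p = 0.284, edgeR). The myosin light chain myl7 had 893, 253, 0, 2, 21 and 396 counts in mutants, against 232, 112, 70, 0, 58, 89 and 258 in controls, and overlapped. Its log2 fold change was 0.78, and that of the tropomyosin gene tpma was -0.15. The 3 matched erythrocyte markers summed to 0 to 31.9 CPM in mutants and 0 to 3.17 CPM in controls. Of them hbaa1 had counts in mutants 1, 2 and 3 alone, whereas hbaa2 had 11, 45 and 19 in mutants 2, 4 and 6, against 1 and 12 in controls 7 and 8. The 4 matched leukocyte markers, with lyz at 0 in every sample, had a median sum of 0.68 CPM in mutants (0 to 6.03) and 4.70 CPM in controls (0 to 22.2). The 4 matched epicardial and fibroblast markers, with tcf21 at 0 in every sample, had a median sum of 22.7 CPM in mutants and 41.7 CPM in controls, with overlap. Of them col1a1a had a log2 fold change of 0.70 and col1a2 of -1.06. Median sums in mutants and controls were 29.25 and 12.88 CPM for smooth muscle and 1.40 and 0.19 CPM for endothelium. They were 9.59 and 5.30 CPM for epithelium and 0.82 and 0 CPM for liver, and all of these overlapped. Markers within a list differed in direction. For smooth muscle, a tagln ID had 43, 18, 4 and 36 counts in controls 1, 4, 5 and 7 alone, and another had 15 in mutant 6 and 1 in control 6. For epithelium, epcam had 1 count in mutant 6, against 1, 171, 43, 12 and 2 in controls 1, 3, 4, 7 and 8. The cldn7b gene had 24, 14, 45 and 4 in mutants 2, 4, 5 and 6, against 2 and 1 in controls 1 and 7. The part of these markers in the member counts was not tested, and in bulk sections fewer cells of a type and less RNA per cell cannot be told apart.

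**Figure D2:**
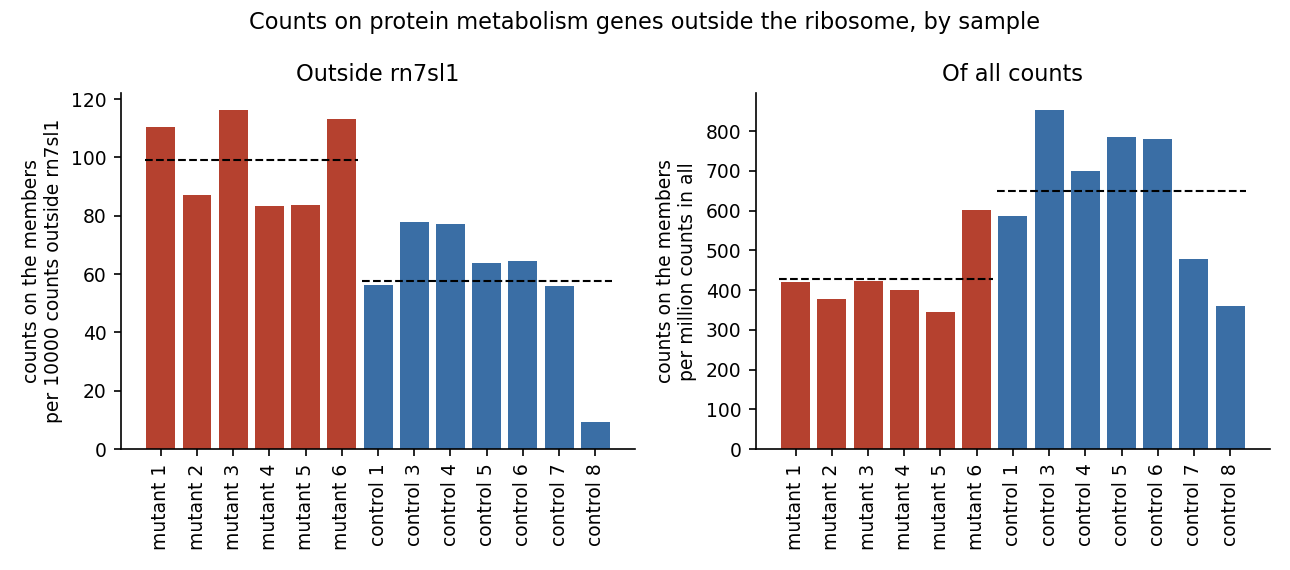
Counts on the 103 members in each sample, per 10000 counts outside rn7sl1 (left panel) and per 1000000 of all counts (right panel), mutants in red and controls in blue, with dashed lines at the group means. Mutants averaged 99.0 and controls 57.8 outside rn7sl1, whereas over all counts mutants averaged 428.1 and controls 648.9, so the order depends on the denominator.

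No tested member reached an adjusted p under 0.05 in edgeR's quasi-likelihood test, where 6 of the 6138 genes tested did (0.0978%). At an unadjusted p under 0.05, 11 of the 79 members passed (13.9%), against 15.2% of all genes tested. Of these, 9 were higher in mutants (11.4%, against 5.90% of all genes tested) and 2 were lower (2.53%, against 9.30%). The smallest adjusted p of a member was 0.103. The fitted fold change was above 0 for 47 members (59.5%), against 44.0% of all genes tested. The median log2 fold change was 0.21 over the members and -0.30 over all genes tested, and with unscaled library sizes both were below 0, at -0.62 for members and -1.50 for all genes. No tested member had values that did not overlap between the groups, where 0.0815% of all genes tested did. Among tested members, 5 had counts in mutants only (6.33%, against 3.14% of all genes tested) and 1 in controls only (1.27%, against 6.09%). In 9 of the 11 members with an unadjusted p under 0.05, either no mutant or no control had more than 3 counts. Those 9 passed the minimum mean count through the group with more counts alone, and the list came from the study's own results on these ventricles. The shares of members called, or counted in 1 group only, are therefore a description and do not bear on direction. With 1 sample left out, the number of members called lower was 5 without mutant 6, and it was 1 without any of mutants 2, 3 and 4 or of controls 3, 5, 6 and 8. Over all genes tested, 720 were called lower without mutant 6, against 571 with every sample. DESeq2 gave an adjusted p under 0.05 to cct3 and GALNT3, and edgeR with upper-quartile scaling did so for cct3 and eif3ba, while limma's voom fit gave it to no member. The DESeq2 log2 fold changes were 22.4 for cct3, at 0 in every control, and -23.6 for GALNT3, at 0 in every mutant. Over all 6138 genes tested, DESeq2 called 142, upper-quartile scaling 87 and voom 5.

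**Figure D3:**
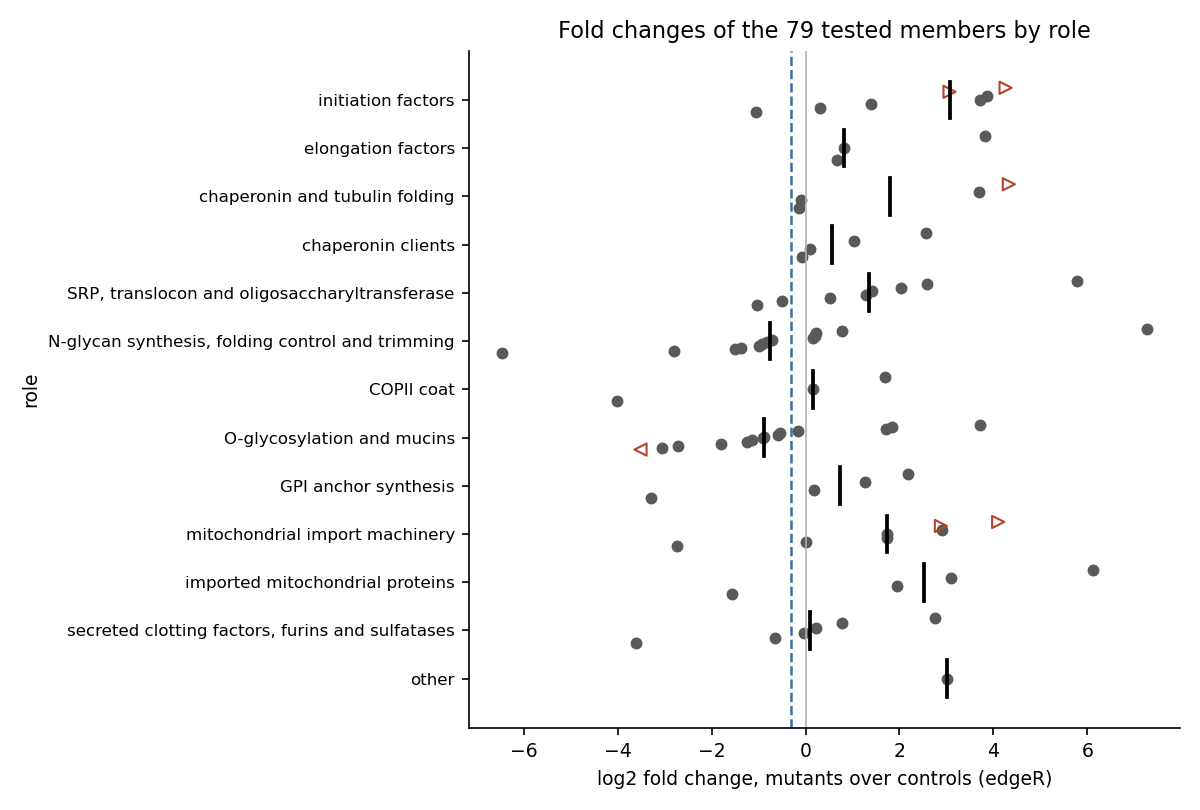
Fitted log2 fold change, mutants over controls, of the 79 tested members by role (grey points), with a black bar at the median of each role and a dashed line at -0.30, the median of all 6138 genes tested. Open triangles mark the 6 members with no count in any mutant or in any control, drawn at the bound that 3 counts per library allow. Of 7 initiation factors 6 lie above 0 and of 14 O-glycosylation genes 3 do, and with unscaled library sizes the medians of 5 roles (elongation factors, SRP and translocon, COPII, GPI anchor, clotting factors) passed below 0.

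Of the 9 initiation factors, 7 were tested and 6 had a fold change above 0, against 44.0% of all genes tested. The 2 with an unadjusted p under 0.05, where 15.2% of all genes tested had one, were higher in mutants and at 0 in every control. They passed the minimum of 10 counts on average through the mutants alone, so the role's counts and median are a description and do not bear on its direction. The median log2 fold change was 3.71, or 3.07 with members at 0 in every control set at their bound, and it stayed above 0 under each of 6 scalings (TMM, RLE, upper quartile, TMMwsp, unscaled library sizes, and TMM without rn7sl1). The eif3ba gene encodes a scaffold subunit of eIF3, the complex that holds the small ribosomal subunit open for mRNA. It had 125, 111, 1, 0, 0 and 177 counts in mutants and none in any control. Taking 3 counts per library as the floor, it was at least 19.1-fold higher in mutants (adjusted p = 0.103, edgeR). The eif2s1b gene, for the alpha subunit of eIF2, whose phosphorylation slows initiation, had 138 counts in mutant 2 and none in the other 12 samples. That gave at least 8.37-fold higher in mutants (adjusted p = 0.103, edgeR), on 1 sample.

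Like eif3ba, the other eIF3 genes had values that overlapped between the groups, and their directions differed. The log2 fold change was 0.32 (SE 2.11) for eif3c and -1.06 (SE 2.30) for eif3d. The untested eif3jb had 2 counts in mutant 2, against 23 and 46 in controls 1 and 5. The eif3c, eif3d and eif3jb genes were named after their values were seen. The eif3f gene had 135, 77, 0, 0, 237 and 134 counts in mutants, against 17, 0, 26, 0, 0, 0 and 0 in controls. Mutants 1, 2, 5 and 6 were above every control and mutants 3 and 4 were at 0 (log2 fold change 3.87, SE 2.07, adjusted p = 0.377, edgeR). The eif3s10 gene, for the largest eIF3 subunit, had 0, 114, 0, 0, 0 and 727 counts in mutants, against 55, 0, 67, 14, 0, 138 and 0 in controls, and mutant 6 alone stood above all controls.

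Elongation factors held the member with the most counts. The eef1g gene encodes the gamma subunit of eEF1, which anchors the exchange factor that recharges eEF1A with GTP. Its counts were 1651, 394, 1096, 9, 1294 and 1171 in mutants, against 192, 0, 8, 104, 0, 62 and 0 in controls. Mutant 4 had 2.05 CPM, inside the range of the controls. The other mutants had 88.0 to 259.8 CPM, against 0 to 36.8 CPM in controls. Means were 149.1 ± 90.7 CPM in mutants (SD, n = 6) and 10.5 ± 14.2 CPM in controls (SD, n = 7). The log2 fold change was 3.83 (SE 1.55, adjusted p = 0.132, edgeR), and it was between 3.60 and 4.70 with any 1 sample left out. The eif5a gene, whose hypusine-bearing product helps ribosomes through difficult peptide bonds, had 72, 29, 195, 0, 342 and 89 counts in mutants, against 7, 281, 0, 240, 0, 0 and 0 in controls. It was present in 5 mutants and 3 controls at overlapping levels. All 3 elongation factors had a fold change above 0 with a median of 0.82, which was -0.11 with unscaled library sizes.

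Chaperonin and tubulin folding genes included the member with the smallest unadjusted p. The cct3 gene encodes a subunit of the ring-shaped chaperonin TRiC, which folds actin and tubulin. It had 342 and 90 counts in mutants 1 and 2 and none in the other 11 samples, at least 20.1-fold higher in mutants (adjusted p = 0.103, edgeR). The cct3 gene passed the minimum mean count through those mutants alone, so this bound is a description and does not bear on its direction. The pfdn2 gene, for a prefoldin subunit that hands unfolded actin and tubulin to TRiC, was more widely detected, with 0, 33, 183, 0, 0 and 124 counts in mutants, against 46, 36, 19, 38, 4, 56 and 116 in controls. It had a count in every control and in 3 mutants, and its fold change was near 0 (log2 fold change -0.11, SE 1.82). For tubb2, a beta-tubulin, there were 0, 37, 1, 163, 0 and 0 counts in mutants, against 43, 0, 48, 226, 0, 0 and 0 in controls, so that mutant 4 and control 5 carried most of them. Of 8 members of the role 4 were tested, and 2, cct3 among them, had a fold change above 0.

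Listed chaperonin clients, proteins that depend on TRiC to fold, were spread over both groups. The arfgef2 gene, an exchange factor for ARF GTPases of the secretory pathway, had 76, 54, 0, 179, 0 and 2 counts in mutants, against 117, 0, 43, 0, 0, 1 and 29 in controls. The fbxl5 gene, an iron-sensing F-box protein of a ubiquitin ligase, had 0, 51, 0, 74, 1 and 1 counts in mutants, against 73, 1, 0, 59, 0, 23 and 0 in controls. Both overlapped between the groups. None of the 4 tested clients had an unadjusted p under 0.05, where 15.2% of all genes tested had one.

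**Figure D4:**
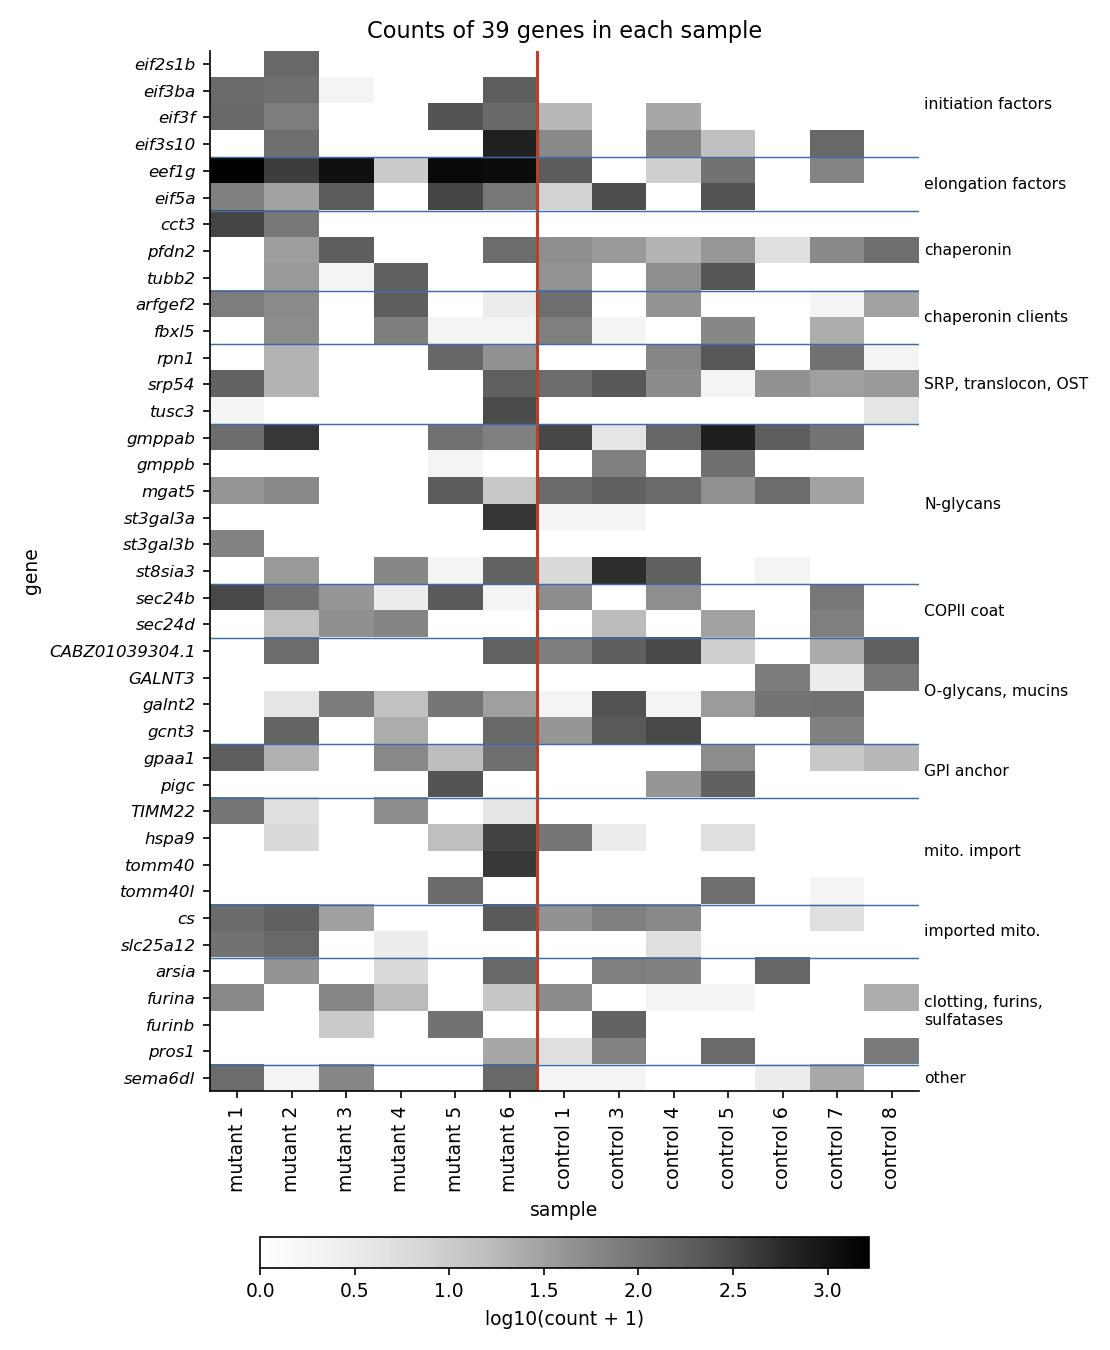
Counts of 39 members (rows, grouped by role) in each sample (columns, mutants to the left of the red line), on a grey scale of log10(count + 1). No row is filled in all 13 columns, eef1g is dark in 5 of 6 mutants, and pfdn2 is present in 3 mutants and all 7 controls.

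The signal recognition particle, whose RNA filled the libraries, had 2 of its proteins among the members. The srp54 gene, for the GTPase subunit that binds the signal peptide, had 157, 19, 0, 0, 0 and 169 counts in mutants, against 122, 213, 52, 1, 44, 32 and 36 in controls. Every control and 3 of the mutants had a count, and its fitted log2 fold change was -0.50 (SE 1.79), against 1.36 for rn7sl1, both with TMM scaling. The srp72 gene, for a scaffold subunit, was named after its values were seen and had 5, 100, 0, 9, 67 and 46 counts in mutants, against 0, 0, 0, 24, 0, 14 and 0 in controls. It was detected in 5 mutants and 2 controls at overlapping levels (log2 fold change 2.58, SE 2.43, adjusted p = 0.924, edgeR), the other direction from srp54. Of the other particle and receptor genes that are not members, srp9 had 6 counts in all, srp14 had 25, srp68 had 15, srpra had 52, srprb had 77 and srp19 had none. The 80 other IDs named as copies of 7SL held 104669 counts between them. Reads of this RNA may therefore lie on more than 1 copy, and those that fit several copies equally may have been left out.

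Oligosaccharyltransferase, the complex that moves the N-glycan onto the growing chain, had 4 member genes, rpn1, tusc3, stt3a and ddost, of which the last was not tested. The rpn1 gene, for ribophorin I, had 0, 19, 0, 0, 142 and 44 counts in mutants, against 0, 0, 60, 218, 0, 105 and 1 in controls, with overlap. For tusc3, an oxidoreductase subunit, 297 counts were in mutant 6, with 1 in mutant 1 and 3 in control 8. Pooled over samples and scaled, tusc3 was 103-fold higher in mutants (adjusted p = 0.293, edgeR), with all but 1 of the mutant counts in mutant 6. The exact 95% interval of 35.0 to 504 covers counting error only. Because tusc3 passed the minimum mean count through mutants alone, this ratio is a description and does not bear on its direction. The stt3a gene, for a catalytic subunit, had 65, 90, 0, 137, 0 and 0 counts in mutants, against 1, 0, 1, 0, 0, 68 and 0 in controls (log2 fold change 2.03, SE 2.06, adjusted p = 0.958, edgeR), with overlap. The ddost gene had 50 counts in mutant 3 and none elsewhere. Both were named after their values were seen. Of the 10 SRP, translocon and oligosaccharyltransferase genes, 8 were tested and 6 had a fold change above 0, with a median of 1.36 that was -0.10 with unscaled library sizes.

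Genes for N-glycan synthesis, folding control and trimming lay on both sides of 0. Of 19 members, 14 were tested and 6 had a fold change above 0, a share like the 44.0% of all genes tested, and with upper-quartile scaling 7 were above and 7 below. The median was -0.76, against -0.30 over all genes tested, and it was below 0 and below the median of all genes under each of the 6 scalings. The gmppb gene, for the catalytic subunit of GDP-mannose pyrophosphorylase, had 1 count in mutant 5, against 70 and 110 in controls 3 and 5, and none in the remaining 10 samples. The pooled and scaled level was 173-fold lower in mutants, with a 95% interval of 30.7 to 6869 for counting error (adjusted p = 0.283, edgeR). Since gmppb passed the minimum mean count through controls alone, this ratio is a description and does not bear on its direction. The role's counts and median include gmppb, so they are a description too. Its partner gmppab, for the regulatory subunit, had 118, 443, 0, 0, 105 and 70 counts in mutants, against 317, 3, 142, 752, 180, 98 and 0 in controls. That gene was seen in 4 mutants and 6 controls with overlapping levels.

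Branching and sialylation enzymes differed from gene to gene. The mgat5 gene, which adds a branch to complex N-glycans, had 40, 55, 0, 0, 190 and 10 counts in mutants, against 129, 163, 128, 45, 124, 30 and 0 in controls, and was present in 4 mutants and 6 controls. The st8sia3 gene, which adds sialic acid to sialic acid, had 0, 37, 0, 59, 1 and 158 counts in mutants, against 5, 544, 163, 0, 1, 0 and 0 in controls, with most of its counts in control 3. Of the pair of genes that match human ST3GAL3, a sialyltransferase, st3gal3a had 456 counts in mutant 6 and 1 each in controls 1 and 3, and st3gal3b had 66 counts in mutant 1 and none elsewhere. The pooled st3gal3a level was 237-fold higher in mutants, with a 95% interval of 65.3 to 1965 for counting error (adjusted p = 0.103, edgeR), on that 1 sample. As st3gal3a passed the minimum mean count through mutant 6 alone, this ratio is a description and does not bear on its direction. The authors counted only reads of high mapping quality, so reads that fit both copies equally may have been left out. The values of such pairs are therefore uncertain.

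COPII coat genes, which bud vesicles from the endoplasmic reticulum, showed no direction in common. The sec24b gene, for a cargo-binding subunit, had 310, 105, 39, 2, 201 and 1 counts in mutants, against 50, 0, 48, 0, 0, 88 and 0 in controls. It was detected in all 6 mutants and in 3 of 7 controls, at levels that overlapped (log2 fold change 1.70, SE 1.79, adjusted p = 0.966, edgeR). Its relative sec24d had 0, 13, 46, 63, 0 and 0 counts in mutants, against 0, 16, 0, 29, 0, 72 and 0 in controls.

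Of the 17 O-glycosylation and mucin genes, 14 were tested and 3 had a fold change above 0, against 44.0% of all genes tested. The median was -0.89, and it was below 0 and below the median of all genes under each of the 6 scalings, as was that of the N-glycan genes. The GALNT3 gene, for a transferase that starts mucin-type O-glycans, had no count in any mutant, against 79, 2 and 86 in controls 6, 7 and 8 and none in the other controls. It was at least 11.4-fold lower in mutants (adjusted p = 0.103, edgeR). GALNT3 passed the minimum mean count through the controls alone, so this bound is a description and does not bear on its direction. It is counted among the role's genes below 0, so the role's counts and median are a description and do not bear on the role's direction. Another transferase of the same family, galnt2, had 0, 3, 80, 13, 91 and 32 counts in mutants, against 1, 248, 1, 35, 97, 106 and 0 in controls, so that 5 mutants and 6 controls had it at overlapping levels. The gcnt3 gene, which branches O-glycans, had 0, 152, 0, 23, 0 and 134 counts in mutants, against 39, 199, 312, 0, 0, 71 and 0 in controls. The ID CABZ01039304.1, matched to the membrane mucin MUC15, had 0, 119, 0, 0, 0 and 161 counts in mutants, against 76, 174, 310, 8, 0, 24 and 167 in controls. It was found in 2 mutants and 6 controls, and the test did not separate the groups (log2 fold change -1.23, SE 1.76, adjusted p = 0.9998, edgeR).

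Glycosylphosphatidylinositol (GPI) anchors tie proteins to the cell surface. The gpaa1 gene, for a subunit of the transamidase that attaches the anchor, had 186, 20, 0, 58, 15 and 111 counts in mutants, against 0, 0, 0, 51, 0, 10 and 17 in controls. It was detected in 5 of 6 mutants and 3 of 7 controls, with overlap (log2 fold change 2.19, SE 2.05, adjusted p = 0.923, edgeR). The pigc gene, which acts in the opening step of anchor synthesis, had 238 counts in mutant 5, against 40 and 164 in controls 4 and 5. Of the 5 members 4 were tested, and none had an unadjusted p under 0.05, where 15.2% of all genes tested had one.

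All 7 mitochondrial import genes were tested, and 6 had a fold change above 0, against 44.0% of all genes tested, with a median of 1.74 that stayed above 0 under each of the 6 scalings. The 2 with an unadjusted p under 0.05, against 15.2% of all genes tested, were higher in mutants, at 0 in every control and tested through the mutants' counts alone, so these values are a description too. The tomm40 gene, for the pore through which proteins cross the outer membrane, had 433 counts in mutant 6 and none in the other 12 samples. The bound was at least 17.2-fold higher in mutants (adjusted p = 0.103, edgeR), on that 1 sample. With voom the log2 fold change of tomm40 was 0.95. Its relative tomm40l had 125 counts in mutant 5, against 115 and 1 in controls 5 and 7. TIMM22, the channel that inserts carrier proteins into the inner membrane, had 93, 4, 0, 49, 0 and 3 counts in mutants and none in any control. Its level was at least 7.37-fold higher in mutants (adjusted p = 0.103, edgeR). The hspa9 gene, for the matrix chaperone that pulls proteins inward, had 0, 5, 0, 0, 14 and 347 counts in mutants, against 93, 2, 0, 4, 0, 0 and 0 in controls, so that mutant 6 and control 1 held nearly all of them.

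Proteins listed as cargo of that route gave a median of 2.52 over the 4 of 6 members that were tested, and 3 had a fold change above 0. The slc25a12 gene, for the aspartate and glutamate carrier, had 104, 137, 0, 2, 0 and 0 counts in mutants, against 4 in control 4 and none in the other controls. The log2 fold change was 6.11 (SE 2.81, adjusted p = 0.244, edgeR), with counts in 3 mutants. The slc25a12 gene passed the minimum mean count through mutants alone. This value and the role's median are therefore a description and do not bear on direction. The cs gene, for citrate synthase, had 125, 170, 31, 0, 0 and 204 counts in mutants, against 44, 73, 55, 0, 0, 4 and 0 in controls. Mutants 1, 2 and 6 were above every control in counts, and mutants 4 and 5 were at 0 (log2 fold change 1.95, SE 1.86, adjusted p = 0.933, edgeR).

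Secreted clotting factors and the enzymes that mature secreted proteins showed no common direction, with 3 of the 6 tested members above 0 and 3 below. The pros1 gene, for the anticoagulant protein S, had 26 counts in mutant 6, against 4, 66, 0, 129, 0, 0 and 84 in controls. The arsia gene, for a sulfatase, had 0, 42, 0, 5, 0 and 138 counts in mutants, against 0, 72, 69, 0, 144, 0 and 0 in controls. Furin cleaves proproteins in the Golgi, and mammalian furin is among the enzymes that cleave VEGFC and VEGFD. Its zebrafish copy furina had 56, 0, 61, 16, 0 and 11 counts in mutants, against 53, 0, 1, 1, 0, 0 and 22 in controls. The copy furinb had 9 and 104 counts in mutants 3 and 5, against 153 in control 3. Both copies overlapped between the groups. The remaining member, sema6dl, a semaphorin, had 123, 1, 60, 0, 0 and 140 counts in mutants, against 1, 1, 0, 0, 2, 25 and 0 in controls, with 3 mutants above every control (adjusted p = 0.778, edgeR).

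The 73 genes of the protein metabolism set that were taken out, mostly ribosomal proteins, were counted in the same way. Of these, 67 were tested and 5 had an unadjusted p under 0.05 (7.46%, against 15.2% of all genes tested). They were 3 higher in mutants (4.48%, against 5.90%) and 2 lower (2.99%, against 9.30%), and none had an adjusted p under 0.05 in edgeR. The median log2 fold change was 0.21 for the members, with 47 of 79 above 0, against 0.85 for the genes taken out, with 45 of 67 above 0.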

How the data were processed

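The samples used here were ventricle cryosections of 6 mutants and 7 controls, sequenced after rRNA depletion with a kit for human, mouse and rat RNA, and directional library preparation. The study describes more mutant hearts at this time than these 6. The authors trimmed reads with Skewer, aligned them to GRCz11 with BWA 0.7.17 and deposited whole-number counts per Ensembl gene from featureCounts 1.5.0, on the correct strand and without normalization. Only reads of high mapping quality were counted. Symbols come from the gene name table, which matched 29201 IDs and 100 of the 103 members. Genes averaging 10 or more counts over the samples entered edgeR 4.0.16 (R 4.3.3) and its quasi-likelihood test with TMM scaling, a log-ratio normalization of library size, with p-values adjusted by Benjamini and Hochberg's method over the 6138 genes. DESeq2 1.42.0 and limma 3.58.1 served as alternatives. CPM are counts per 1000000 of TMM-scaled library size, a floor is 3 counts per library, and intervals are exact (Clopper-Pearson) at 95%. Intervals and floors cover counting error only, and the labels do not say that samples came from separate clutches or days, so p-values measure the spread between these samples. Members and lists were chosen with earlier results of these data known. Named are members with an unadjusted p under 0.05, the 2 with most counts in each role, those with a count in at least 10 samples, and gene pairs with 1 human match (furin, ST3GAL3, TOMM40), and 1 gene named by this rule is not reported here. The mutants' regenerative outcome was not used here, and no sequences are shown because no genome of this build was used.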

Additional observations from a re-analysis of the deposited data

Results flagged for a closer look

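In each group with any count, the highest or lowest sample was compared with its nearest neighbour as a share of the group's whole range, for 39 named members and 6 measures per sample. The gap was wide in 35 of 83 such groups. The cut-off is set to be passed by about 1 in 20 groups, or 4.15, of normally distributed values. That rate does not hold for counts this sparse, which often place a gene in 1 sample and so fix the gap at 1. The 35 is therefore not a measure against chance. No explanation was tested.

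Control 8 was lowest in member counts per 10000 outside rn7sl1, at 9.16, with a gap of 0.681. It was also lowest in the percentage of counts on rn7sl1, at 60.8%, with a gap of 0.876. Mutant 6 was highest among mutants in member counts per 1000000 of all counts, at 602.4, with a gap of 0.702.

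A gap of 1, meaning counts in 1 sample of the group, was found in mutants for pigc (mutant 5), gmppb (mutant 5), st3gal3a (mutant 6), st3gal3b (mutant 1), eif2s1b (mutant 2), tomm40 (mutant 6), tomm40l (mutant 5) and pros1 (mutant 6), and in controls for tusc3 (control 8), slc25a12 (control 4) and furinb (control 3). Among mutants, mutant 6 stood above the rest for tusc3 (0.996), hspa9 (0.958) and eif3s10 (0.76). Mutant 5 did so for furinb (0.906) and rpn1 (0.7), mutant 4 for tubb2 (0.778) and arfgef2 (0.704), mutant 2 for gmppab (0.812) and mutant 1 for cct3 (0.627). Among controls, control 5 was apart for tomm40l (0.988), tubb2 (0.806), pigc (0.799) and gmppab (0.57). Control 7 was apart for sema6dl (0.922), sec24d (0.7), eif3s10 (0.698) and sec24b (0.569). Control 1 was apart for hspa9 (0.958) and arfgef2 (0.658), control 3 for st8sia3 (0.654) and control 6 for arsia (0.698).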

How the results depend on the processing

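No member had an adjusted p under 0.05 with TMM, nor with any 1 sample left out (0 to 0), while upper-quartile scaling and DESeq2 each called 2. Over all 6138 genes tested, TMM called 6, upper-quartile scaling 87 and DESeq2 142. Members higher at an unadjusted p under 0.05 numbered 9 of 79 with TMM, against 362 of all 6138 genes tested. They numbered 17 of 79 with upper-quartile scaling (753 of 6138 genes) and 14 of 103 with no filter (2561 of 19595). There was 1 of 21 with filterByExpr (16 of 1402). A count needed in at least 7 samples left 1 of 30 (53 of 2468). DESeq2 gave 5 of 79 (245 of 6138), and voom with quality weights 4 of 79 (126 of 6138). With 1 sample left out there were 7 to 12, against 315 to 473 over all genes. Members lower at that level numbered 2 with TMM (571 of 6138 genes), 4 with upper-quartile scaling (569) and 5 with unscaled library sizes (836). They numbered 6 with no filter (4277 of 19595 genes), 0 with filterByExpr (21 of 1402) and 1 with the likelihood ratio test (448 of 6138). With a count needed in at least 7 samples there were 0 (59 of 2468 genes). With 1 sample left out there were 1 to 5, against 430 to 851 over all genes. filterByExpr kept 21 of the members and the 7-sample filter 30. The median log2 fold change of 0.21 was 0.57 with RLE, 1.63 with upper-quartile, 0.43 with TMMwsp, -0.62 with unscaled library sizes, 0.39 without rn7sl1, 0.58 with filterByExpr, -0.21 with the 7-sample filter, 1.39 with DESeq2, and 0.19 to 0.66 with 1 sample left out. The median of all genes tested moved as well, between -1.50 unscaled and 0.39 with upper-quartile scaling. Members with non-overlapping values numbered 0 to 1 with 1 sample left out. The share over all genes tested was not counted for those fits, so this number has no background to be read against. Members with a count in mutants alone numbered 11, and 9 to 15 with 1 sample left out. Members with a count in controls alone numbered 6, and 4 to 13 in those runs, with 12 without mutant 2 and 13 without mutant 6. These numbers are out of all 103 members, including those not tested. The same share over all genes was not counted for them, so they have no background to be read against. Among tested members, 5 had counts in mutants only (6.33%, against 3.14% of all genes tested) and 1 in controls only (1.27%, against 6.09%). The ratio of member shares outside rn7sl1, 1.71, was 0.66 over all counts and 1.502 to 1.82 with 1 sample left out.

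For replicate numbers shared by 5 mutants and 5 controls, deviations of same-numbered samples correlated at -0.02 to 0.08, and 1 of 5 matched its own number best. With counts this sparse, these correlations cannot show whether same-numbered samples were paired. With a replicate block on those 10 samples, 1 member was higher at that level and 1 was lower, the median was -0.045, and 12 members had counts in controls alone. Over all 6445 genes tested with the block, 31 were higher and 77 lower. The same 10 samples without the block, an alternative added after the data were seen, gave 8 higher, 0 lower and also 12 in controls alone. Over all 6445 genes tested they gave 534 higher and 863 lower. Genes with counts in controls alone were not counted over all genes for these 10 samples, so the 12 has no background. The log2 fold change of st3gal3a was -0.30 under the block. Of 261 values of single members under the alternatives, 1 turned direction, and 4 gained an adjusted p under 0.05, those of cct3 and GALNT3 in DESeq2 and of cct3 and eif3ba with upper-quartile scaling. The cause of these moves was not tested. The DESeq2 fit gave st3gal3a, tusc3, eif2s1b and tomm40 a fold change but no p-value, so there these members could not gain an adjusted p. Fits in which a member was not tested gave no value. For tomm40, eif2s1b, st3gal3a and tusc3 these included the fit without the mutant that held all or nearly all of the counts. The values therefore do not show whether the direction of these members holds without that mutant. With filterByExpr, only eef1g had a value. Another 24 of the 103 members had too few counts to test.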

Other observations

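The eIF3 subunit gene eif3m, which is not among the members and was picked out after its counts were seen, had 284112 counts and ranked 5 among all genes. It had counts in all 13 samples, between 3306 and 106651 in mutants and between 1765 and 83672 in controls, with mutant 5 and control 8 highest. Its log2 fold change was -0.08 (SE 0.68, adjusted p = 0.9998, edgeR). The member subunits eif3ba, eif3c, eif3d, eif3f, eif3jb and eif3s10 had counts in 4, 5, 7, 6, 3 and 6 of the 13 samples, in that order.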
